A study of Mus musculus with 2 samples.

Results

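Histone genes of the replication-dependent families were described in mouse bone marrow progenitors after exposure to low pressure and in control marrow. The 64 genes were taken by name, as those whose symbol starts with Hist1h, Hist2h, Hist3h or Hist4, together with H1f0. Of 68 genes with such names among the 27706 gene columns of the tables, 64 held at least 20 unique molecules (UMIs) summed over both tables, and the members were chosen by this sum. The 4 genes left out were Hist1h1t, Hist1h2ba, Hist1h2aa and Hist1h2bq, with 10, 7, 3 and 2 UMIs. The members nearest to the limit were Hist2h2aa2, Hist2h2aa1 and Hist2h2bb, with 26, 30 and 33 UMIs. By class, 5 genes encode the linker histone H1, 17 encode H2A, 16 encode H2B, 12 encode H3 and 13 encode H4. H1f0, which encodes the replacement linker histone H1.0, was left out of the class sums and of the histone sum, which cover the other 63 genes, and is included in the counts of members.

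Both libraries came from ICR mice of 7 to 8 weeks, an outbred strain, and no allele or transgene is named for either group. The hypoxia mice were kept for 13 days in an altitude chamber at 52.93 kPa, given as equal to 5000 m, with 19.5% oxygen. The control mice were killed on arrival, so time in the chamber and handling also differ between the groups and cannot be told apart from the low pressure. The labels give this age for both groups without saying when it was taken. Bone marrow of both groups was depleted of mature cells with magnetic beads against lineage markers and captured as single cells on the BD Rhapsody platform. Each group had 1 library, and the sources used here do not say how many mice stand behind it. There was therefore no replicate and no test, and each interval below covers counting error only.

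After filtering, 6280 hypoxia cells and 3917 control cells remained, with median depths of 21345 and 32156 UMIs per cell. The hypoxia library was the shallower of the pair. The median hypoxia cell held 5 UMIs of the 63 replication-dependent genes, and the median control cell held 8. No such UMI was found in 646 hypoxia cells and 220 control cells. The libraries shared 23 cell index numbers. Levels are given as UMIs per 1000000 UMIs of the same cells (CPM), not divided by transcript length. They are therefore compared between cells and libraries and not between genes. A difference in a cell's histone RNA and one in the rest of its RNA cannot be told apart in such values.

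Histones package DNA. An octamer of H2A, H2B, H3 and H4 forms the core of the nucleosome, and H1 binds the linker DNA where it enters and leaves. Replication-dependent histone genes lie in clusters, are transcribed mainly in S phase, and give mRNAs that end in a conserved stem-loop in place of a poly(A) tail. Some of them also give polyadenylated transcripts that end further downstream, as is known from differentiated cells. H1f0 gives an ordinary polyadenylated mRNA and is known as the linker histone of slowly dividing and maturing cells. Since the Rhapsody beads capture RNA by its poly(A) tail, the UMIs here need not follow the total histone mRNA of a cell.

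The stem-loop was searched for after the stop codon in the longest coding transcript of each member (GENCODE vM21, build GRCm38). It was found in 42 of the 63 genes, between 21 and 58 bases after the stop codon, in 6 forms of 16 bases. Of the 21 genes without a match, 13 have no annotated 3′ untranslated region, so there was nothing to search. The 26 bases around it are shown for genes on which the results turn, 5′ to 3′ on the gene's strand, with the stem and loop in capitals.
Hist1h1c (H1, chr13:23739507-23739532, plus strand): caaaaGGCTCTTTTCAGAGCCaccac
Hist1h3c (H3, chr13:23745042-23745067, minus strand): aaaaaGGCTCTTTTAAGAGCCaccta
Hist1h4d (H4, chr13:23581945-23581970, plus strand): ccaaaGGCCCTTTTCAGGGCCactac
Hist1h4b (H4, chr13:23757361-23757386, plus strand): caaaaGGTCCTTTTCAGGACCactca
Hist1h4i (H4, chr13:22040961-22040986, minus strand): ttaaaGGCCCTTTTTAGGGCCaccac
The form of Hist1h1c was shared by 25 members of classes H1, H2A, H2B and H3. That of Hist1h3c was found in 5 members. The H4 genes carried other stems, with the form of Hist1h4d in 7 of them, that of Hist1h4b in 2 and that of Hist1h4i in 2, the second being Hist2h4.

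The annotated transcripts ran on past the stem-loop by very different lengths. In 21 genes the transcript went on for at least 100 bases, by 840 bases in Hist1h1c, 330 in Hist1h4i, 1153 in Hist1h1e and 4884 in Hist1h1d. These 21 genes held 65.2% of all UMIs of the 63 genes, with a median of 876 UMIs per gene over both libraries. The 21 genes whose transcript ends within 100 bases of the stem-loop held 13.9% of the UMIs, with a median of 507. The other 21 genes, with no stem-loop found, held 20.9%, and Hist1h1b was the highest of them with 4544 UMIs. In erythroid cells at the CFU-E stage, described below, the median log2 ratio of hypoxia over control was -0.14 in 18 genes that run on, -0.24 in 15 that end near the stem-loop and -0.15 in 14 without one. All 3 medians lay below 0.

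The members lie at 4 histone loci and at H1f0. The Hist1 cluster on chromosome 13 holds 50 of them between 21715763 and 23764406. The Hist2 cluster on chromosome 3 holds 10, chromosome 11 the 2 Hist3 members, and chromosome 6 Hist4h4. H1f0 lies at chr15:79028450-79030504, Hist1h1c at chr13:23738808-23740367 and Hist1h4i at chr13:22040636-22041362 (GRCm38). Copies within a class are close to each other in sequence. In 29 of 64 members over 50% of the 50-base windows of the transcript also occur in another histone transcript, so their UMIs may be split among copies. For Hist1h4i this share was 28.9%, with Hist1h4n as the closest copy, for Hist1h1c it was 8.54%, and for H1f0 and Hist1h1b it was 0%. The bounds of 24 members overlap another annotated gene, such as Hist1h2be, which overlaps one end of Hist1h1e. Both of these lie on the minus strand, so strand would not separate their UMIs. For the other overlaps, the sources used here do not say whether the counting used strand.

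Cells were placed in 14 gates from marker genes, and 11 gates with at least 50 cells in each library were compared. The 3 others, of B, T/NK/ILC and eosinophil type, held 21 to 79 cells per library. Erythroid cells were 54.0% of hypoxia cells and 58.7% of control cells. They were split into an early stage that still holds Gata2, a CFU-E stage (named for the colony-forming erythroid progenitor) with low Gata2 and under 10 globin UMIs per 10000, a globin onset stage, and a globin high stage with at least 100 per 10000. Each stage is a range and not a type. At the limit of 100, 143 hypoxia cells and 37 control cells lay within 20% of it, and at the limit of 10 these were 112 and 68. The median globin level in the globin onset stage was 36.1 per 10000 in hypoxia cells and 24.5 in control cells. Markers that were not used for gating were higher in their own gate than in the median of the other gates, in both libraries and for each gate. Against single other gates this did not always hold. In control cells the 4 markers of stem cells and multipotent progenitors (HSC/MPP) summed to 1432 CPM in the lymphoid-primed gate and 1252 CPM in their own. In hypoxia cells the 3 lymphoid-primed markers summed to 1170 CPM in the T/NK/ILC gate and 847 CPM in their own.

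Summed over the 63 genes, the histone level was lower in hypoxia cells than in control cells in 10 of the 11 gates. In HSC/MPP-like cells, the gate of stem cells and multipotent progenitors, the sum was 308 CPM in hypoxia cells and 557 CPM in control cells. The ratio was 0.553 (95% interval 0.518 to 0.591). Lymphoid-primed cells had 367 CPM in hypoxia and 556 CPM in control, a ratio of 0.660 (95% interval 0.605 to 0.720). These were, with the globin high stage, the gates with a sum at least 1.5-fold lower in hypoxia cells. Markers of other cells also differed between the libraries in the HSC/MPP-like and lymphoid-primed gates. In the HSC/MPP-like gate the 4 HSC/MPP markers not used for gating summed to 1185 CPM in hypoxia cells and 1252 CPM in control cells, 3 granulocyte-monocyte progenitor markers to 2106 and 1472 CPM, and 4 erythroid markers to 168 and 93.3 CPM, none of them at 0. There 49 of 332 hypoxia cells and 20 of 338 control cells lay within 0.25 units of standardized marker score of another gate. In the lymphoid-primed gate 3 markers of its own summed to 847 CPM in hypoxia cells and 839.7 CPM in control cells, the 4 HSC/MPP markers to 1034 and 1432 CPM, the 4 erythroid markers to 414 and 167 CPM, and 3 monocytic markers to 332 and 135 CPM, none at 0. The 3 granulocyte-monocyte progenitor markers summed to 2438 CPM in hypoxia cells and 1863 CPM in control cells, where 1 of them was at 0. Markers differed in other gates too. In the monocytic gate 3 markers of its own summed to 1272 CPM in hypoxia cells and 778 CPM in control cells, and the 4 HSC/MPP markers to 205 and 543 CPM. In the basophil/mast-like gate 3 markers of its own summed to 2093 CPM in hypoxia cells and 1127 CPM in control cells, and the 4 erythroid markers to 155 and 54.0 CPM. The part of such differences in the ratios of these gates, those of single members included, was not tested. Megakaryocyte-like cells had 426 CPM in hypoxia and 609 CPM in control, a ratio of 0.699 (95% interval 0.644 to 0.759). Granulocyte-monocyte progenitors and monocytic cells had ratios of 0.779 and 0.809. Neutrophil-like cells were the exception, with 562 CPM in hypoxia cells and 553 CPM in control cells and a ratio of 1.02 (95% interval 0.870 to 1.19), on 452 hypoxia UMIs and 260 control UMIs. Pooled over all cells the sum was 287 CPM in hypoxia cells and 309 CPM in control cells, a ratio of 0.928 (95% interval 0.914 to 0.941). The pooled value also moves with the share of each gate, as basophil/mast-like cells, with the highest sum, were 9.84% of hypoxia cells and 6.48% of control cells. The part of these shares in the pooled ratio was not tested.

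Between gates the sum differed by more than it did between the libraries. It was highest in basophil/mast-like cells, with 1145 CPM in hypoxia cells and 1453 CPM in control cells, and lowest at the CFU-E stage, with 182 CPM in hypoxia cells and 217 CPM in control cells. Along the erythroid stages of hypoxia cells the sum was 185 CPM at the early stage, 182 at the CFU-E stage, 234 at globin onset and 358 in globin high cells. In control cells the same stages had 227, 217, 281 and 548 CPM. The sum was thus higher in the globin-bearing stages than before them in both libraries, while the early and CFU-E stages of hypoxia cells, at 95% intervals of 176 to 195 and 179 to 186, overlapped. The ratio of hypoxia over control was 0.814 (95% interval 0.764 to 0.866) at the early stage, 0.838 (95% interval 0.817 to 0.859) at the CFU-E stage, 0.835 (95% interval 0.794 to 0.877) at globin onset and 0.654 (95% interval 0.610 to 0.701) in globin high cells.

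**Figure D1:**
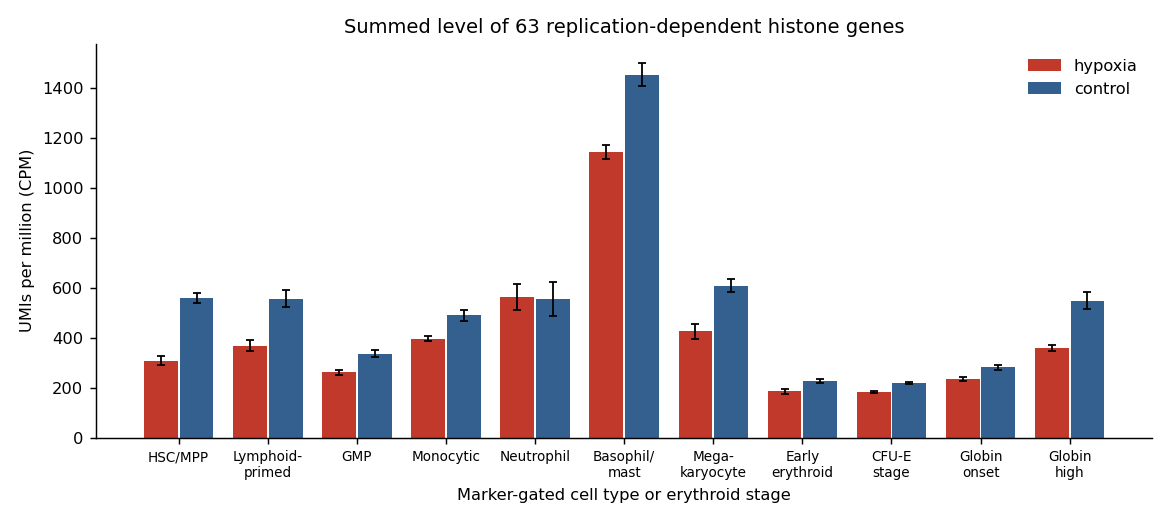
Summed level of the 63 replication-dependent histone genes in CPM in each of 11 gates, with hypoxia cells (red) left of control cells (blue); GMP is the granulocyte-monocyte progenitor gate, and error bars are exact Poisson 95% intervals, which cover counting error only. The highest pair is in basophil/mast-like cells (1145 and 1453 CPM), the lowest at the CFU-E stage, and the hypoxia bar is below the control bar except in neutrophil-like cells.

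By class, H4 had the lowest ratio of the 5 classes in each gate but the neutrophil-like one. Without Hist1h4i another class was lower in the granulocyte-monocyte progenitor, lymphoid-primed, monocytic, basophil/mast-like, megakaryocyte-like, early erythroid and globin high gates. H4 without this gene stayed lowest in HSC/MPP-like cells, at the CFU-E stage and at globin onset. In granulocyte-monocyte progenitors that ratio was 0.919 (95% interval 0.749 to 1.13), beside 0.742 for H2A. The H4 sum at the CFU-E stage was 28.1 CPM in hypoxia cells and 57.1 CPM in control cells, a ratio of 0.492 (95% interval 0.464 to 0.522). In the other 9 gates outside the neutrophil-like cells the H4 ratio lay between 0.328 in HSC/MPP-like cells and 0.595 in granulocyte-monocyte progenitors. All 10 intervals lay below 1. H4 genes held 15.4% of the histone UMIs of hypoxia cells at the CFU-E stage and 26.3% of those of control cells. The linker class H1 had 70.5 CPM in hypoxia cells and 69.9 CPM in control cells at the same stage, a ratio of 1.01 (95% interval 0.967 to 1.05), so this class did not differ there beyond counting error. H2A had a ratio of 0.976 (95% interval 0.917 to 1.04), while H2B and H3 had ratios of 0.897 (95% interval 0.846 to 0.952) and 0.894 (95% interval 0.824 to 0.969).

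In HSC/MPP-like cells all 5 classes were lower in the hypoxia library. H1 had 155 CPM in hypoxia cells and 265 CPM in control cells there, a ratio of 0.584 (95% interval 0.531 to 0.642). The ratios were 0.601 for H2A, 0.631 for H2B and 0.529 for H3, each with an interval below 1. In globin high cells H1 had 111 CPM in hypoxia cells and 171 CPM in control cells, a ratio of 0.648 (95% interval 0.572 to 0.734), and H2A and H3 had ratios of 0.718 and 0.751. The interval for H2B in this stage, 0.738 to 1.02, held 1. Over the 55 pairs of class and gate, 48 had a ratio below 1.

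**Figure D2:**
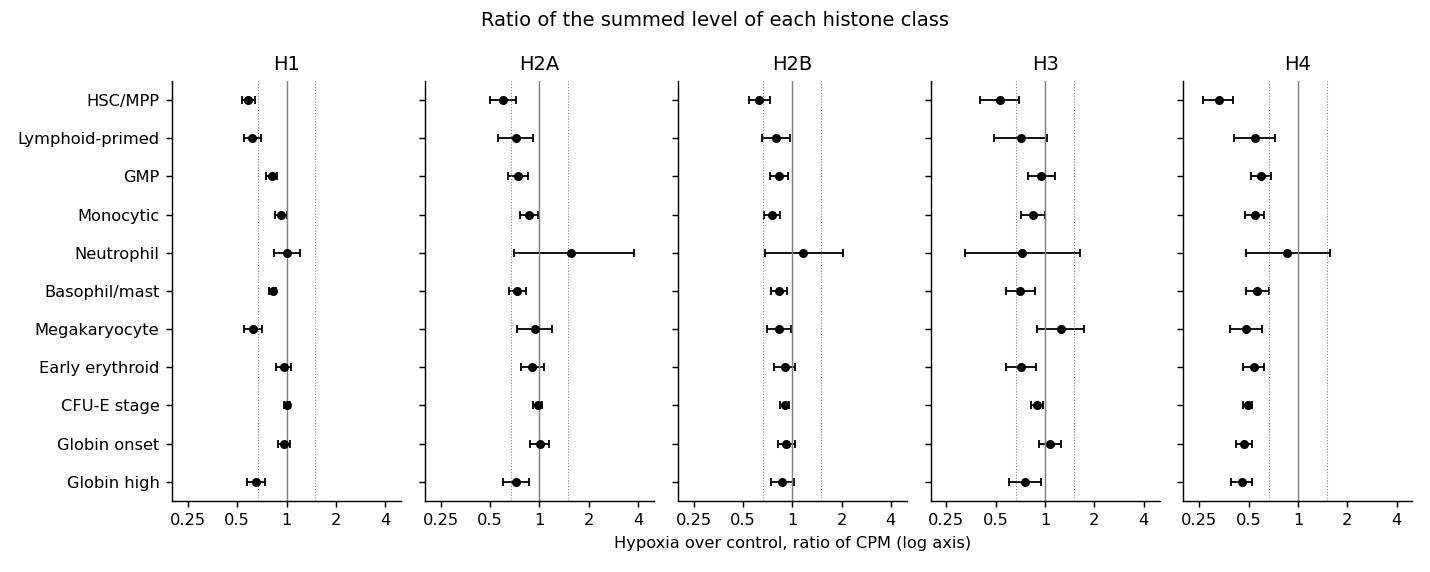
Ratio of the summed CPM in hypoxia cells over that in control cells for the 5 histone classes (panels) and 11 gates (rows), on a log axis; points are ratios, bars exact 95% intervals for counting error, the solid line marks 1 and the dotted lines a 1.5-fold difference. H4 lies left of 1 in all 11 gates, and its interval holds 1 in the neutrophil-like cells alone. H1 lies at 1.01 at the CFU-E stage and at 0.584 in HSC/MPP-like cells.

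Hist1h1c, which encodes the linker histone H1.2, held 20670 UMIs in the 2 tables and most of the H1 sum of basophil/mast-like cells. Basophil/mast-like cells had 677 CPM in hypoxia and 829.8 CPM in control, neutrophil-like cells had 387 CPM in hypoxia and 379 CPM in control, and globin onset cells had 26.8 CPM in hypoxia and 22.2 CPM in control. It was thus highest and lowest in the same gates of both libraries. The direction of the difference between the libraries was not the same in all gates. At the CFU-E stage the gene had 34.9 CPM in hypoxia cells and 26.8 CPM in control cells, a ratio of 1.30 (95% interval 1.22 to 1.39). The early, globin onset and globin high stages had ratios of 1.19, 1.20 and 1.41, each with an interval above 1 and none past 1.5-fold. Under other processing the ratio stayed above 1 at the CFU-E stage (1.23 to 1.32) and at globin onset (1.06 to 1.25). At the early stage it was 0.868 as a mean of single-cell CPM and 0.838 in cells thinned to 5000 UMIs, and in globin high cells it was 0.979 as a mean of single-cell CPM, 1.54 with a stricter cell filter and above 1.5-fold in thinned cells too. Lymphoid-primed cells had 139 CPM in hypoxia and 248 CPM in control, a ratio of 0.559 (95% interval 0.487 to 0.641). HSC/MPP-like and megakaryocyte-like cells had ratios of 0.582 and 0.571. In these 3 gates the gene was at least 1.5-fold lower in hypoxia cells. Whether the effects differ between gates was not tested.

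The other 4 H1 members encode H1.1 (Hist1h1a), H1.3 (Hist1h1d), H1.4 (Hist1h1e) and H1.5 (Hist1h1b). Hist1h1b had 12.8 CPM in hypoxia cells and 18.8 CPM in control cells at the CFU-E stage, a ratio of 0.678 (95% interval 0.618 to 0.742), and 27.8 CPM in hypoxia cells and 69.1 CPM in control cells in the globin high stage, a ratio of 0.402 (95% interval 0.325 to 0.499). It was lower in hypoxia HSC/MPP-like cells as well, with 7.37 CPM in hypoxia cells and 20.4 CPM in control cells. Hist1h1d had 4.09 CPM in hypoxia cells and 6.31 CPM in control cells at the CFU-E stage and 9.26 CPM in hypoxia cells and 23.9 CPM in control cells in globin high cells. Its ratio was below 1 in all 9 gates where it reached 50 UMIs, between 0.388 and 0.728. Hist1h1e was within 1.5-fold in each gate where it reached 50 UMIs, although in thinned cells its early-stage ratio was 0.509. It had 15.4 CPM in hypoxia cells and 13.9 CPM in control cells at the CFU-E stage, a ratio of 1.11 (95% interval 1.01 to 1.21). Hist1h1a had 3.31 CPM in hypoxia cells and 4.06 CPM in control cells, a ratio of 0.816 (95% interval 0.675 to 0.985). The H1 sum without Hist1h1c was 35.6 CPM in hypoxia cells and 43.1 CPM in control cells at the CFU-E stage, a ratio of 0.825 (95% interval 0.779 to 0.873). Where the H1 sums were alike, Hist1h1c was thus higher in hypoxia cells and the sum of the other 4 genes lower, although Hist1h1e was not.

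Promoter windows of 300 bases (250 before to 50 after the start, RefSeq, GRCm38) were matched for 59 members. The CCAAT box was searched on both strands, and 49 of 59 members (83.1%) held it, against 37.9% of 27025 promoters. It was found in all 5 H1, 17 H2A, 14 H2B and 10 H3 windows, in 3 of 12 H4 windows, and not in that of H1f0. AAACACA, the H1 box, was found in 4 of 5 H1 windows and in 6 of 59 members in all (10.2%), against 7.14% of all promoters. TATAAA was found in 33 of 59 members (55.9%) and in 14.2% of all promoters. A match is a description of letters and not of binding. The 200 bases before the start are shown for 3 members with different values, with matches to these motifs on either strand in capitals.
Hist1h1c (chr13:23738607-23738806, plus strand): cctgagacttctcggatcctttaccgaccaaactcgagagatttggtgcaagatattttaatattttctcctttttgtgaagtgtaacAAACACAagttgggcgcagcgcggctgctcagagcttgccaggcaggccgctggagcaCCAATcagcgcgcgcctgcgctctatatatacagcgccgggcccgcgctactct
Hist1h1b (chr13:21780626-21780825, minus strand): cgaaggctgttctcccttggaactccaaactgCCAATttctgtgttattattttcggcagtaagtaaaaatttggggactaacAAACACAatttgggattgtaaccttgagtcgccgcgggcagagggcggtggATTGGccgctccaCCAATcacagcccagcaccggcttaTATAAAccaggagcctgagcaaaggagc
Hist1h4i (chr13:22041363-22041562, minus strand): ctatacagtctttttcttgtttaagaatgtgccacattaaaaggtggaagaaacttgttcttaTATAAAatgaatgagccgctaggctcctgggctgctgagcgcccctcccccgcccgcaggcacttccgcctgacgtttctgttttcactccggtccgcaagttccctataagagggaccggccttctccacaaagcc
Hist1h1c and Hist1h1b, with ratios of 1.30 and 0.678 at the CFU-E stage, both hold the H1 box and CCAAT, and Hist1h1b holds TATAAA as well. The Hist1h4i window holds TATAAA alone of the 3 motifs.

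H1f0 was higher in hypoxia cells in the late erythroid stages. Globin onset cells had 74.0 CPM in hypoxia and 39.0 CPM in control, a ratio of 1.90 (95% interval 1.69 to 2.14), and globin high cells had 109.7 CPM in hypoxia and 58.2 CPM in control, a ratio of 1.89 (95% interval 1.56 to 2.30). At the early and CFU-E stages the ratios were 1.18 (95% interval 1.04 to 1.33) and 1.11 (95% interval 1.05 to 1.17), both under 1.5-fold. Along the stages of hypoxia cells the level was 56.7, 44.7, 74.0 and 109.7 CPM, and along those of control cells 48.1, 40.2, 39.0 and 58.2 CPM. In hypoxia cells the summed H1f0 level was therefore above its CFU-E level at globin onset. In control cells it was so in the globin high stage and not at globin onset. The share of control cells with an H1f0 UMI did not rise there. In thinned control cells it was 14.9% at the CFU-E stage, 14.8% at globin onset and 8.05% in globin high cells. In thinned hypoxia cells these shares were 16.6%, 23.3% and 23.3%. The globin onset stages also differ in median globin, with 36.1 per 10000 in hypoxia cells and 24.5 in control cells. For the 63 genes the order of the libraries was opposite to that of H1f0, as their sum was lower in hypoxia cells in both late stages.

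In monocytic cells H1f0 had 99.3 CPM in hypoxia cells and 63.5 CPM in control cells, a ratio of 1.56 (95% interval 1.37 to 1.79). It was highest in basophil/mast-like cells, with 226 CPM in hypoxia cells and 299 CPM in control cells, and in megakaryocyte-like cells, with 189 CPM in hypoxia cells and 198 CPM in control cells. Basophil/mast-like and HSC/MPP-like cells had ratios of 0.757 (95% interval 0.691 to 0.829) and 0.755 (95% interval 0.678 to 0.840), lower in hypoxia cells but within 1.5-fold. Neutrophil-like cells had 32.3 CPM in hypoxia and 38.3 CPM in control, on 26 and 18 UMIs. After each cell was thinned to 5000 UMIs, 23.3% of hypoxia cells and 8.05% of control cells of the globin high stage held an H1f0 UMI (484 and 87 cells, median depths 17618 and 23353 UMIs before thinning). Without thinning these shares were 40.7% and 17.2%. No gate is known to lack H1f0, so the part of free RNA in these shares was not tested; the lowest thinned share was 6.06% of 33 hypoxia neutrophil-like cells.

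The H2A members with the most UMIs were Hist1h2ae, Hist1h2ac and Hist3h2a. Hist1h2ae had 12.5 CPM in hypoxia cells and 12.2 CPM in control cells at the CFU-E stage, a ratio of 1.02 (95% interval 0.926 to 1.13). It was at least 1.5-fold lower in hypoxia cells in the HSC/MPP-like gate alone among 10, with 9.51 CPM in hypoxia cells and 15.1 CPM in control cells. Hist1h2ac was concentrated in basophil/mast-like cells, with 80.1 CPM in hypoxia cells and 102 CPM in control cells, against 1.81 CPM in hypoxia cells and 2.35 CPM in control cells of the CFU-E stage. Hist3h2a, from the small chromosome 11 cluster, had a ratio below 1 in all 9 gates with 50 UMIs, and had 10.7 CPM in hypoxia cells and 19.6 CPM in control cells in HSC/MPP-like cells. In thinned cells its ratio was above 1 in 4 of these gates, at 1.24 in monocytic cells, 2.31 in megakaryocyte-like cells, 1.27 at the CFU-E stage and 2.05 at globin onset. Hist1h2ab was the member with the highest log2 ratio, with 1 CPM added on both sides, over all cells and at the CFU-E stage. It had 2.74 CPM in hypoxia cells and 1.47 CPM in control cells at that stage, a ratio of 1.86 (95% interval 1.44 to 2.41), and it was higher in hypoxia cells in all 4 gates where it was measured. The transcript of Hist1h2ab ends 11 bases after its stem-loop.

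Among H2B members, Hist1h2bc had 8.99 CPM in hypoxia cells and 8.17 CPM in control cells at the CFU-E stage, a ratio of 1.10 (95% interval 0.974 to 1.24). It was lower in monocytic cells, with 12.7 CPM in hypoxia cells and 25 CPM in control cells, a ratio of 0.508 (95% interval 0.397 to 0.652). Hist1h2bc was highest in basophil/mast-like cells, with 65.6 CPM in hypoxia cells and 97.6 CPM in control cells, and megakaryocyte-like cells, with 79.2 CPM in hypoxia cells and 93.1 CPM in control cells. These gates stood far above the erythroid stages in both libraries. Hist2h2be, from the chromosome 3 cluster, had 34.6 CPM in hypoxia cells and 22.4 CPM in control cells in globin high cells, a ratio of 1.55 (95% interval 1.13 to 2.16), and 13.3 CPM in hypoxia cells and 22.7 CPM in control cells in HSC/MPP-like cells, a ratio of 0.585 (95% interval 0.417 to 0.812). Hist1h2bg had 22.0 CPM in hypoxia cells and 12.8 CPM in control cells in basophil/mast-like cells, a ratio of 1.72 (95% interval 1.16 to 2.62). Hist1h2bj, with few UMIs, had 0.776 CPM in hypoxia cells and 2.58 CPM in control cells at the CFU-E stage, a ratio of 0.301 (95% interval 0.212 to 0.419) on 45 hypoxia UMIs and 175 control UMIs. Hist3h2ba had 0.870 CPM in hypoxia cells and 0.400 CPM in control cells over all cells, on 116 and 48 UMIs. Globin high cells were the only gate where it was measured, and its highest gate in both libraries. There it had 5.31 CPM in hypoxia cells and 6.46 CPM in control cells, a ratio of 0.822 with an interval that held 1. This gate made up 7.83% of hypoxia cells and 2.37% of control cells. The part of these shares in the pooled Hist3h2ba values was not tested.

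The H3 members differed among themselves. Hist1h3c, the H3 gene with the most UMIs, had 4.21 CPM in hypoxia cells and 4.26 CPM in control cells at the CFU-E stage, a ratio of 0.987 (95% interval 0.829 to 1.17). Monocytic cells had 9.48 CPM in hypoxia and 4.44 CPM in control, a ratio of 2.14 (95% interval 1.31 to 3.66), on 130 and 19 UMIs, which was 1.28 in thinned cells and there under 1.5-fold. Hist1h3a had 2.60 CPM in hypoxia cells and 4.79 CPM in control cells at the CFU-E stage, a ratio of 0.543 (95% interval 0.445 to 0.661), and its ratio was below 1 in all 8 gates where it was measured, but 1.02 in thinned granulocyte-monocyte progenitors. Hist1h3b, which lies at chr13:23752267-23752886 in the same stretch of the Hist1 cluster as Hist1h3a at chr13:23761853-23762386, with Hist1h4b and Hist1h4a between them, had 3.21 CPM in hypoxia cells and 2.33 CPM in control cells, a ratio of 1.38 (95% interval 1.11 to 1.71), and was above 1 in all 4 gates where it was measured. In thinned cells the Hist1h3b ratio was 0.980 at the CFU-E stage and 0.539 in globin high cells, so its direction there depends on the processing. Hist1h3e and Hist1h3h had ratios of 1.29 (95% interval 1.03 to 1.61) and 1.68 (95% interval 0.983 to 2.93) at this stage, the second on 61 UMIs. Hist1h3b shares 60.4% of its 50-base windows with other histone transcripts and Hist1h3a 49.5%, so UMIs may be split between copies.

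Hist1h4i, an H4 gene with 5801 UMIs, was the member with the lowest ratio over all cells, with 11.1 CPM in hypoxia cells and 35.1 CPM in control cells and a ratio of 0.316 (95% interval 0.298 to 0.336). At the CFU-E stage it had 10.1 CPM in hypoxia cells and 30.8 CPM in control cells, a ratio of 0.329 (95% interval 0.300 to 0.361). Globin onset cells had 7.10 CPM in hypoxia and 37.9 CPM in control and globin high cells 6.66 CPM in hypoxia and 55.2 CPM in control, ratios of 0.187 (95% interval 0.151 to 0.231) and 0.121 (95% interval 0.0866 to 0.167). Outside the erythroid gates, HSC/MPP-like cells had 12.4 CPM in hypoxia and 52.6 CPM in control, and megakaryocyte-like cells 33.9 CPM in hypoxia and 81.4 CPM in control. It was at least 1.5-fold lower in hypoxia cells in all 10 gates where it reached 50 UMIs, with ratios between 0.121 and 0.416. The neutrophil-like gate, with 18 and 10 UMIs, had 22.4 CPM in hypoxia cells and 21.3 CPM in control cells. Along the erythroid stages the level in hypoxia cells was 11.2, 10.1, 7.10 and 6.66 CPM, and in control cells 30.7, 30.8, 37.9 and 55.2 CPM. The level was thus lower in the late stages than in the early ones in hypoxia cells, and higher in them in control cells.

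In cells thinned to 5000 UMIs at the CFU-E stage, a Hist1h4i UMI was found in 6.20% of the hypoxia library (exact binomial 95% interval 5.16 to 7.38) and 15.0% of the controls (13.3 to 16.9). Before thinning these were 23.6% and 68.0%, at median depths of 29832 and 43008 UMIs. The thinned share was lower in the hypoxia library in each of the 11 gates, with intervals that overlapped in some of them. No gate is known to lack Hist1h4i, so background from free RNA was not tested.

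The other H4 genes were lower in hypoxia cells too, by less in sum. H4 without Hist1h4i had 18.0 CPM in hypoxia cells and 26.3 CPM in control cells at the CFU-E stage, a ratio of 0.684 (95% interval 0.633 to 0.739). All 12 H4 members with at least 50 UMIs at this stage had a ratio below 1, from 0.324 to 0.879, and in 10 the interval lay below 1, against 29.4% of all genes tested. Hist1h4d had 10.6 CPM in hypoxia cells and 12 CPM in control cells, a ratio of 0.879 (95% interval 0.790 to 0.977). Hist1h4f had 1.22 CPM in hypoxia cells and 2.73 CPM in control cells and Hist1h4b 0.604 CPM in hypoxia cells and 1.43 CPM in control cells, ratios of 0.449 (95% interval 0.336 to 0.593) and 0.422 (95% interval 0.278 to 0.627). In the Hist1 cluster, the genes beside Hist1h4i had ratios below 1 as well, of different sizes. So did most members at the CFU-E stage, 34 of the 48 with at least 50 UMIs. The share of all genes with a ratio below 1 was not counted. The median log2 ratio was -0.18 over the 48 members and 0.07 over all genes tested. Hist1h2bk and Hist1h2ag, the nearest members on either side, had ratios of 0.753 (95% interval 0.613 to 0.922) and 0.868 (95% interval 0.678 to 1.11) at the CFU-E stage, while Hist1h2bj, the next, had 0.301.

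**Figure D3:**
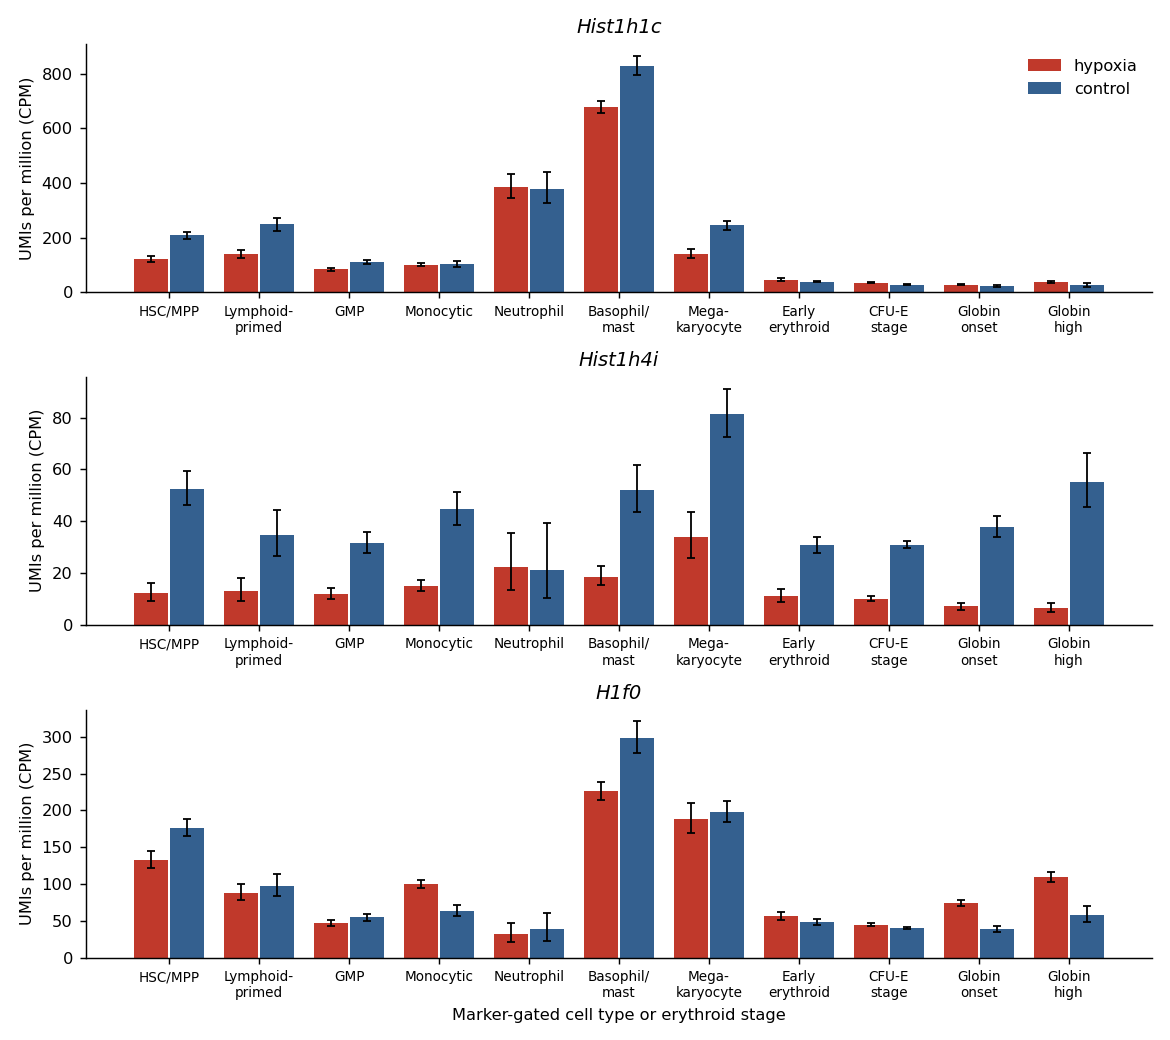
Level of Hist1h1c, Hist1h4i and H1f0 in CPM in 11 gates, hypoxia cells (red) left of control cells (blue), with exact Poisson 95% intervals for counting error. Hist1h4i is lower in hypoxia cells in 10 of 11 gates, H1f0 is higher in hypoxia cells at globin onset (74.0 and 39.0 CPM) and in globin high cells, and Hist1h1c peaks in basophil/mast-like cells.

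Over all members, more genes were at least 1.5-fold lower than higher in most gates. A member was counted where it reached 50 UMIs over both libraries in the gate and the log2 ratio with 1 CPM added on both sides passed 1.5-fold, and the share of all genes that did so is given beside each count. At the CFU-E stage 48 members reached 50 UMIs, of which 5 were lower (3.54% of all genes) and 1 was higher (9.26%). The 5 were Hist1h4i, Hist1h2bj, Hist1h4f, Hist1h3a and Hist1h4b, and the 1 was Hist1h2ab. Since many members lie near 1 CPM at this stage, the added 1 CPM shrinks their ratios. With nothing added 14 members were lower (5.84% of all genes) and 2 were higher (14.5%), and 9 of the 14 were H4 genes. By the counting interval alone, 21 of the 48 lay below 1 (29.4% of all genes) and 6 above 1 (44.7%). The median log2 ratio of the 48 was -0.18, against 0.07 over all 11312 genes tested.

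In HSC/MPP-like cells 10 of 15 members with 50 UMIs were lower and none was higher, where 4.6% and 6.12% of all genes were. The median log2 ratio was -0.64 over these members and 0.02 over all genes. The 10 were Hist1h1c, Hist1h1b and Hist1h1d of H1, Hist1h2ae, Hist1h2ac and Hist3h2a of H2A, Hist1h2bc and Hist2h2be of H2B, Hist1h3a, and Hist1h4i. So the lower level spread over all 5 classes in this gate. In lymphoid-primed cells 5 of 11 members were lower (5.33% of all genes) and 0 were higher (7.3%).

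In the globin high stage 8 of 24 members were lower (6.7% of all genes) and 3 were higher (12.9%), these being H1f0, Hist2h2be and Hist1h3d, the last named after its values were seen. At globin onset 6 of 31 were lower (4.7%) and 2 were higher (9.2%), H1f0 and Hist1h3e. At the early stage 4 of 20 were lower (5.29%) and 0 were higher (10.6%). In basophil/mast-like cells 6 of 19 were lower (7.06%) and 2 were higher (7.34%). In monocytic cells 6 of 30 were lower (5.4%) and 3 were higher (8.02%). Granulocyte-monocyte progenitors had 2 of 24 lower (3.26%) and megakaryocyte-like cells 2 of 11 (5.63%), with none higher in either gate, where 5.05% and 6.39% of all genes were. In neutrophil-like cells Hist1h1c alone reached 50 UMIs, and it was neither lower (5.95%) nor higher (21.1%). Over all cells pooled, 2 of 60 were lower (3.22%) and 1 was higher (8.92%). The share lower was near that of all genes.

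**Figure D4:**
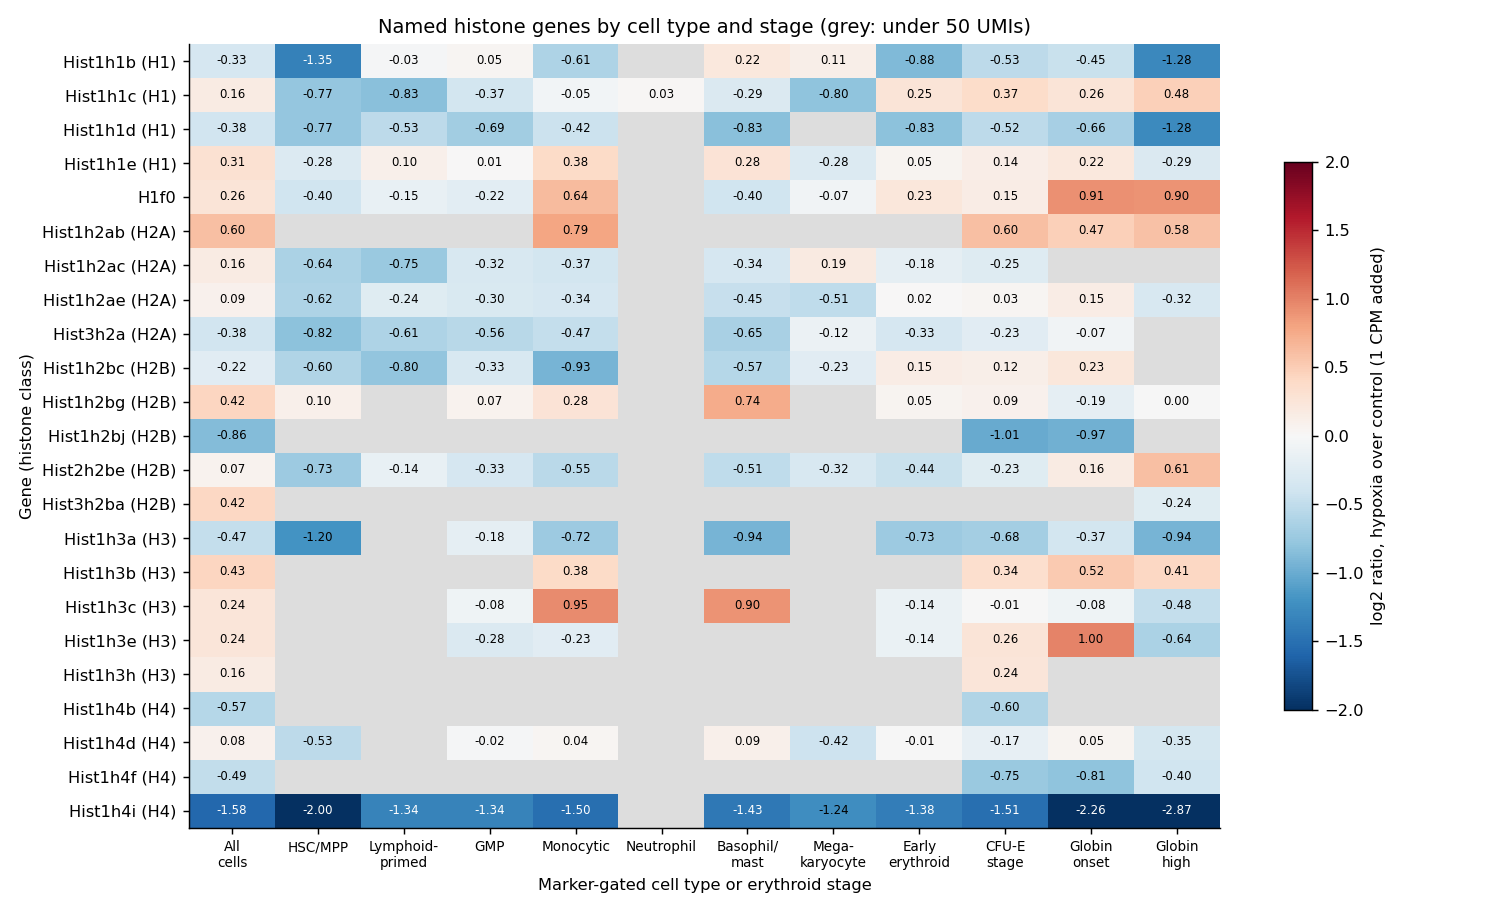
The log2 ratio of hypoxia over control, with 1 CPM added on both sides, for the named members (rows, with histone class) over all cells and in 11 gates (columns); blue is lower and red is higher in hypoxia cells, and grey marks fewer than 50 UMIs over both libraries. The Hist1h4i row runs from -1.24 to -2.87 in 10 gates, and H1f0 reaches 0.91 at globin onset.

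The histone level also varied with the share of cell cycle genes in single cells. Cells of a gate were split into tertiles by the share of their UMIs from 42 S phase genes, with the same limits for both libraries and no histone gene among the 42. In hypoxia cells of the CFU-E stage the histone sum was 144, 175 and 229 CPM in the low, middle and high tertile (668, 550 and 690 cells). In control cells it was 173, 211 and 283 CPM (484, 602 and 463 cells). The sum was higher in each next tertile, and lower in hypoxia cells than in control cells in each of the 3. Of 34 members with at least 50 UMIs in each library at this stage, 27 were higher in the high tertile than in the low tertile in both libraries, where 36.4% of all 10145 genes with as many UMIs were, and in 11 of them both intervals lay above 1 (19.8% of all genes). Hist3h2a was the only one of the 34 that was lower in both (44.1% of all genes).

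Over the whole erythroid gate 38 of 44 such members were higher in the high tertile in both libraries (34.4% of all genes) and 30 with both intervals above 1 (24.1%). Hist1h2bc, Hist1h2ac and Hist3h2a were lower in both libraries (54.1%). The S phase list itself differed by stage. It had 7479 CPM at the CFU-E stage and 15271.5 CPM in the globin high stage of hypoxia cells, and 7302 and 13188 CPM in control cells. Tertiles of the whole gate therefore also sort cells by stage, and the parts of stage and of cell cycle were not separated there. Hist1h4i at the CFU-E stage had 8.28, 10.3 and 12 CPM by tertile in hypoxia cells and 26.1, 30.8 and 36.9 CPM in control cells, so the difference between the libraries was present in each tertile. Hist1h1c at this stage had 22.3, 33.1 and 49.7 CPM in hypoxia cells and 24.8, 27.6 and 28.1 CPM in control cells. The higher Hist1h1c of hypoxia cells was seen in the middle and high tertiles and not in the low tertile. Tertiles by 36 G2/M genes held a histone sum of 211, 164 and 177 CPM in hypoxia cells of the CFU-E stage and 240.3, 211 and 204 CPM in control cells. At that stage 11 of the 34 members were higher in the high G2/M tertile in both libraries (34.3% of all genes), 1 with both intervals above 1 (14.5%), and 13 were lower (45.3%). Over the whole erythroid gate the sum by G2/M tertile was 207, 171 and 249.5 CPM in hypoxia cells and 237, 211 and 261 CPM in control cells. There 33 of 44 members were higher in the high tertile in both libraries (31.3% of all genes), 18 with both intervals above 1 (19.9%), and 4 were lower (53.6%). The G2/M list differed by stage as well, so the same limit holds. It had 8702 CPM at the CFU-E stage and 16534 CPM in the globin high stage of hypoxia cells, and 8534 and 17371 CPM in control cells. In basophil/mast-like cells 8 of 10 members were higher in the high G2/M tertile in both libraries (34.2% of all genes) and 1 was lower (38.7%). The 1 was Hist1h1c, with both intervals below 1. The genes other than Hist1h1c held 40.9% of the histone UMIs of this gate in hypoxia cells and 42.9% in control cells, so the count of members does not give the direction of the sum. By S phase tertile 2 of these 10 members were higher in both libraries (38.6% of all genes) and 5 were lower (36.9%).

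Basophil/mast-like cells had their lowest histone sum in the high tertile. It was 1340.1, 1419 and 875 CPM by S phase tertile in hypoxia cells and 1809.9, 1635 and 1015 CPM in control cells. Hist1h1c was lower in each next tertile of both libraries, with 1006, 817 and 444 CPM in hypoxia cells and 1227, 896 and 469 CPM in control cells. Without Hist1h1c the sum was highest in the middle tertile of both libraries, at 602 CPM in hypoxia cells and 739 CPM in control cells. The tertiles of this gate held 70 to 221 cells per library.

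**Figure D5:**
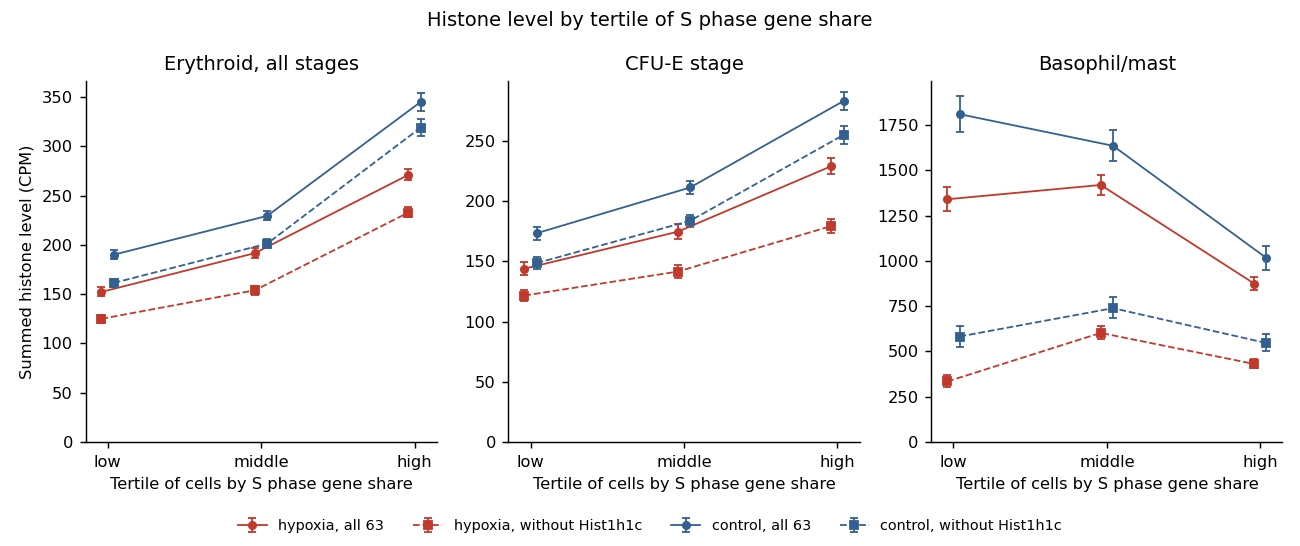
Summed histone level (CPM) by tertile of S phase gene share in the erythroid gate, the CFU-E stage and basophil/mast-like cells, for hypoxia cells (red) and control cells (blue), with all 63 genes (solid lines, circles) and without Hist1h1c (dashed lines, squares); bars are exact Poisson 95% intervals for counting error. The lines climb from low to high tertile in both erythroid panels and the solid lines are lowest in the high tertile of basophil/mast-like cells.

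Genes that act with the histone genes were counted by the same rule. Of 10 replication-independent histones, which are polyadenylated and also made outside S phase, 9 reached 50 UMIs at the CFU-E stage. Of these 1 was higher in hypoxia cells and none was lower, where 9.26% and 3.54% of all genes were. It was H1fx, another linker histone, with 3.67 CPM in hypoxia cells and 1.68 CPM in control cells. The next were the centromeric H3 variant Cenpa, with 509 CPM in hypoxia cells and 367 CPM in control cells, and H2afv, with 141 CPM in hypoxia cells and 108 CPM in control cells, both within 1.5-fold. H2afj, H3f3b and H2afy were the lowest of the list, with ratios of 0.778, 0.895 and 0.943. The sum of the list was 5899 CPM in hypoxia cells and 5573 CPM in control cells, a ratio of 1.06.

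Of 20 genes for the transcription and 3′ processing of histone mRNA, 20 were measured at the CFU-E stage and none passed 1.5-fold with 1 CPM added in either direction, against the same shares of all genes. Cdk2, the kinase partner of cyclin E, had 113 CPM in hypoxia cells and 76.3 CPM in control cells, and Ccne1, which encodes cyclin E1, had 166 CPM in hypoxia cells and 211 CPM in control cells. The Sm-like protein gene Lsm10, part of the U7 particle that cleaves histone mRNA, had 21.3 CPM in hypoxia cells and 28.9 CPM in control cells. Slbp, whose protein binds the stem-loop, had 298 CPM in hypoxia cells and 278 CPM in control cells. Pou2f1 and Cpsf2 had ratios of 1.24 and 1.23, and Zfp473, on 41 and 82 UMIs, had 0.585 without the added 1 CPM. All 18 histone chaperone and acetylation genes were within 1.5-fold as well, with Hjurp, Rbbp4 and Chaf1b highest at ratios of 1.30, 1.21 and 1.18, and Ipo4, Hira and Ssrp1 lowest at 0.780, 0.807 and 0.831.

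The S phase list was lower in hypoxia cells in some gates with a lower histone sum and not in others. In megakaryocyte-like cells the ratio of the list was 0.893 (95% interval 0.870 to 0.917), beside 0.699 for the histone sum. At the early erythroid stage it was 0.927 (95% interval 0.916 to 0.937), beside 0.814. In the other gates with a lower histone sum the list was not lower, and 3 of them are given here. All 42 of its genes were within 1.5-fold at the CFU-E stage, with a ratio of summed CPM of 1.02. In HSC/MPP-like cells the ratio of the list was 1.07 and that of the 36 G2/M genes 0.745, beside 0.553 for the histone sum. In globin high cells these were 1.16, 0.952 and 0.654. HSC/MPP-like cells had median depths of 11425 UMIs in hypoxia and 13863 in control, and globin high cells 17618 and 23353. The part of depth and of the number of cycling cells in the histone ratios was not tested.

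Few counts rested on single cells. The cell with the most histone UMIs held 0.261% of all such UMIs in hypoxia and 0.696% in control. For Hist2h3c1, an H3 gene of the chromosome 3 cluster, 31 of 152 hypoxia UMIs (20.4%) lay in 1 cell, while the highest control cell held 3 of 132.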

How the data were processed

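The deposited tables hold whole-number counts of unique molecules per gene and cell, which the authors produced with version 1.7.1 of the BD Rhapsody whole-transcriptome pipeline (build GRCm38, annotation GENCODE M19), per the file headers. The submitters' processing notes also list Bowtie2, with no version. Cells with at least 500 UMIs, 200 genes and at most 20% mitochondrial UMIs were kept, and doublets called with Scrublet in scanpy 1.11.5 were removed (112 in the hypoxia library, 33 in the control library). This left 133313485 UMIs in hypoxia cells and 119857280 in control cells. Each cell went to the class with the highest standardized marker score, with at least 2 markers detected, and erythroid cells were split at 10 and 100 globin UMIs per 10000 and 0.5 Gata2 UMIs per 10000. The limit of 50 cells per library was set after seeing the data.

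UMIs were summed per gate and library and divided by the gate's total. Levels have exact Poisson 95% intervals and ratios exact conditional binomial ones (Python 3.11.15, numpy 2.4.6, scipy 1.17.1, pandas 2.3.3). UMIs are molecules, but intervals cover counting error only. A member was called at 1.5-fold with 1 CPM added and at least 50 UMIs over both libraries. The ratio interval and the 1.5-fold call alone were tried on Poisson counts simulated from the CFU-E stage sums, with known folds. The intervals assume such counts, so this checks the calculation and not the spread between cells or mice. Gating, doublet calls, thinning and tertiles were not simulated. The members and lists were chosen with earlier results of these data known. Named were H1f0, the 12 members with most UMIs, the top member of each class, the 5 highest and 5 lowest log2 ratios over all cells and at the CFU-E stage, and the 3 at either end of each other list. Other members are named after their values were seen, such as Hist1h1a, Hist1h2bk, Hist1h2ag and Hist1h3d, and so is Slbp. Promoters are from RefSeq and transcripts from GENCODE vM21.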

Additional observations from a re-analysis of the deposited data

Results flagged for a closer look

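For 3 members the ratio of hypoxia over control passed 1.5-fold in opposite directions in different gates, which is why they are listed here. The share of all genes that did so was not counted, so the count is not read as a trait of the members. With 1 library per group the difference between gates was not tested. Hist1h3d, an H3 gene named after its values were seen, had a ratio of 0.318 in basophil/mast-like cells, on 34 hypoxia UMIs and 47 control UMIs, and of 2.73 in globin high cells, on 48 and 4 UMIs, with an interval of 0.999 to 10.4 that holds 1. Hist1h3e, another H3 gene, had a ratio of 2.54 at globin onset, on 80 hypoxia UMIs and 17 control UMIs, and of 0.597 in globin high cells, on 42 and 16 UMIs, with an interval of 0.328 to 1.14. Hist2h2be, an H2B gene, had a ratio of 0.585 in HSC/MPP-like cells, on 56 hypoxia UMIs and 116 control UMIs, and of 1.55 in globin high cells, on 306 and 45 UMIs. For Hist2h2be both intervals left out 1.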

How the results depend on the processing

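No paired analysis was possible because each group had 1 library and no result comes from a test. Over 9 main results and 92 alternatives, 73 values stayed within their counting interval or within 1.5 times the count, 19 moved, and no ratio crossed 1. For class ratios in single gates, 346 of 385 alternatives stayed within the counting interval and 17 lay on the other side of 1. For named members in single gates these were 1345 of 1433 and 62. The histone sum ratio of all cells, 0.928, was 0.879 with median ratio scaling, 0.839 as a mean of single-cell CPM and 0.863 in thinned cells. At the early erythroid stage the ratio of 0.814 was 0.734 as a mean of single-cell CPM and 0.656 thinned. At the CFU-E stage 0.838 was 0.798 with median ratio scaling and 0.866 thinned. At globin onset 0.835 was 0.779 with globin limits of 5 and 50. In globin high cells 0.654 was 0.584 as a mean of single-cell CPM, 0.578 thinned, 0.753 with limits of 5 and 50 and 0.560 with limits of 20 and 200. The count of members at least 1.5-fold higher at the CFU-E stage, 1, was 0 with median ratio scaling, in thinned cells and with 10 CPM added, and 2 with no pseudocount. The count lower, 5, was 3 thinned, 1 with 10 CPM added and 14 with no pseudocount. The H1f0 ratio at the CFU-E stage stayed between 1.06 and 1.16. Of the class ratios, H2A in neutrophil-like cells, 1.56, was 0.738 as a mean of single-cell CPM. Of the named members, the Hist1h2bc ratio in lymphoid-primed cells, 0.567, was 1.40 thinned. The cause of these moves was not tested. The alternatives for single members were chosen after seeing the data. With 1 library per group no value has a replicate check, and the neutrophil-like gate, with 137 hypoxia cells and 78 control cells, has too few UMIs for most members.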
